A study of Homo sapiens with 21 samples.

Results

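The hnRNPs (heterogeneous nuclear ribonucleoproteins) and related RNA-binding regulators were followed as a module of 39 genes, taken by name from the 60668 genes listed in the count tables. No measured value entered that rule, but the list was drawn up with earlier results of these data known. The members were the hnRNP A/B, C, D, F/H, K, L, M, R, Q and U genes, their poly(C)- and polypyrimidine-tract-binding relatives, and the STAR, TIA, ELAV, FET, TDP-43, RBM39, PUF60, SFPQ and NONO genes. All 39 passed the filter on low counts in both tables. RNA was counted per gene in 21 libraries of HCC1806, an established line of human triple-negative breast cancer cells, all grown as adherent 2D cultures. There were 7 groups, each with 3 libraries. The first table held cells labelled 3xSR (SRSF2, SRSF3 and SRSF7 overexpressed together, as the series title names them), cells labelled MYC-OE (MYC overexpressed) and their control, 3xCTL. In the second table stood 3 lines with 1 factor each, called here SRSF2-OE, SRSF3-OE and, for SRSF7, SRSF7-OE, beside a single plasmid control (1xCtrl). The comparison for MYC-OE used 3xCTL, from the same table, and whether they carry the same vector is not given. The promoters that drive the transgenes and the number of clones are not given in the sources used here. Nothing there says that the replicates of a group were separate cultures, so the p-values measure only the spread between these libraries, which may be technical.

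hnRNPs coat nascent transcripts and steer splice-site choice, export, stability and translation, often by opposing the SR proteins, the family to which SRSF2, SRSF3 and SRSF7 belong. Many of them limit their own level, or that of a paralog, by promoting the splicing of an exon that leads the mRNA to nonsense-mediated decay. MYC is a transcription factor that binds the E-box CACGTG, and genes for splicing regulators are known among its targets. Counts per gene do not separate productive transcripts from those destined for decay, and splicing was not analysed here.

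The E-box was looked for in the members' promoters, since MYC-OE was one of the comparisons. RefSeq promoter windows (GRCh38.p14) were matched for 32 of the 39 members; HNRNPA1, KHDRBS3, TAF15, ELAVL1, RBM39, SFPQ and PUF60 had no match. CACGTG, which reads the same on both strands, lay within the 250 bases before the RefSeq start in 7 of the 32 (21.9%), against 6.49% of 27305 promoters. The 7 were HNRNPA3, HNRNPD, HNRNPDL, HNRNPH2, HNRNPH3, HNRNPM and KHDRBS1. Stretches are shown for the 4 of these that passed the expression test in at least 1 comparison with a control, with the E-box in capitals and 5′ to 3′ on the strand of the gene. They come from chr4:82373992-82374091 (minus strand), chr1:32013618-32013717 (plus), chr19:8444921-8444950 (plus) and chr2:177212711-177212740 (plus).
HNRNPD: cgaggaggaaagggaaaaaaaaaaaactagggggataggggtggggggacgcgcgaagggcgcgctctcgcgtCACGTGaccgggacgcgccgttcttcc
KHDRBS1: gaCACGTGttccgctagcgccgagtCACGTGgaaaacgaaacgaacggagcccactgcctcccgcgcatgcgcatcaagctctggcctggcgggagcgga
HNRNPM: gttgcgtcgggtCACGTGggcgcgcaggcg
HNRNPA3: cggaaaacgcgtCACGTGacgactggcccc
The E-box of HNRNPD ended 22 bases before the RefSeq start, that of HNRNPM 37 and that of HNRNPA3 66, while KHDRBS1 held 2, ending 243 and 220 bases before it. The GENCODE release 29 starts, used for gene positions below, differ. By them the stretches of HNRNPD, HNRNPM and HNRNPA3 lay inside the gene, and that of KHDRBS1 lay before it. A match is a description of the letters and not of binding. GGGCGG, the GC box, lay in 25 of the 32 windows on either strand (78.1%), against 42.3% of all promoters. For both motifs, the background of all promoters was not matched to the members by GC content or expression.

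Total counts ranged from 143269192 to 303323552 per library, so that the floor of 3 counts stood between 0.00947 and 0.021 CPM, the count per mega-count of TMM-scaled library. The epithelial genes KRT5, KRT6A, EGFR, EPCAM, CDH1 and TP63 were present in every library, PGR was at 0 in 12 of 21 and the T-cell gene CD3E at 0 in 18. Listed with PGR, ESR1 (6.49 to 11.5 CPM) and ERBB2 (99.6 to 184) were at 0 in no library. Of the genes of other cell types listed with CD3E, PTPRC (0.126 to 0.539) and COL1A1 (5.46 to 15.7) were also counted in every library. SRSF2 did not pass the test in the libraries labelled SRSF2-OE (log2 fold change −0.16, edgeR adjusted p = 0.098) or 3xSR (−0.06, 0.389), so both names below stand for the label and not for a measured rise of SRSF2. SRSF3 (0.30) and SRSF7 (0.24) were called higher in those labelled SRSF2-OE. SRSF3 was higher in SRSF3-OE (0.49) and 3xSR (0.31), SRSF7 in SRSF7-OE (0.26) and 3xSR (0.44), and MYC in MYC-OE (0.90), 3xSR (0.75), SRSF7-OE (0.27) and SRSF3-OE (0.26). SRSF2 was called lower in MYC-OE (−0.48) and SRSF7-OE (−0.38). The controls held libraries that stood apart by base composition. Each library was compared with the mean of its own group of 3, as a log2 deviation. In 1xCtrl replicate 2 this deviation was larger by 0.65 for the most GC-rich genes than for the least GC-rich ones (the outer bins of 10). The same value was −0.45 in 1xCtrl replicate 3 and −0.41 in 3xCTL replicate 2. The counts of members higher and lower per line are therefore also given without the second replicate of the control.

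Of the 39 genes, 31 passed edgeR's quasi-likelihood test (Benjamini-Hochberg adjusted p under 0.05 over all genes tested) against the own control in at least 1 of the 5 lines, and 71 of the 195 tests were called. The share of all genes that passed in at least 1 line was not counted. The single-gene lines held most of the higher calls. SRSF2-OE had 18 members higher and 2 lower, SRSF3-OE had 15 and 3, and SRSF7-OE had 9 and 4. In 3xSR 4 members were higher and 4 lower, and in MYC-OE 4 and 8. The counts of the 3 single-gene lines share the libraries of 1xCtrl, whose levels differed from those of 3xCTL in both directions. On a scale fitted over both tables, HNRNPM was 208 ± 5.47 CPM (SD, n = 3) in 1xCtrl and 261 ± 12.6 in 3xCTL. SYNCRIP was 272 ± 19.6 and 321 ± 24.9, while RBM39 was 202 ± 15.5 and 132 ± 6.10. The control and the table cannot be told apart. Differences were mostly small: 6 of the 71 calls passed 1.5-fold, namely RBM39 and KHDRBS3 in both 3xSR and MYC-OE, KHDRBS3 in SRSF3-OE and HNRNPAB in SRSF2-OE. In bulk RNA, fewer cells of a type and less RNA per cell cannot be told apart.

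These counts were read against all genes tested, of which 29% were called in 3xSR, 35.3% in MYC-OE, 23.5% for SRSF2-OE, 29.2% for SRSF3-OE and 17.3% for SRSF7-OE. Higher calls were made for 15.3% of all genes in 3xSR, 18% in MYC-OE, 11.6% for SRSF2-OE, 15% for SRSF3-OE and 9.03% for SRSF7-OE, and lower calls for 13.7%, 17.3%, 11.9%, 14.1% and 8.26%. Since 36 of the members stood at 50 CPM or more in every library, genes with a mean of at least 50 CPM are the closer background. Among those, higher calls made up 19.7% in 3xSR, 24.5% in MYC-OE, 22.8% for SRSF2-OE, 36.9% for SRSF3-OE and 17.2% for SRSF7-OE. The members' share of higher calls was 46.2% in SRSF2-OE, above both backgrounds. In SRSF3-OE it was 38.5%, close to that of well-expressed genes, and in SRSF7-OE it was 23.1%. In 3xSR and MYC-OE the share of higher calls was 10.3% in each, below both backgrounds, and the lower calls of MYC-OE (20.5%) lay near the 21.2% of well-expressed genes. Lower calls among well-expressed genes made up 16.8% in 3xSR, 14.7% for SRSF2-OE, 8.64% for SRSF3-OE and 12.5% for SRSF7-OE, against 10.3%, 5.13%, 7.69% and 10.3% of the members. The median log2 fold change of the members was 0.17 for SRSF2-OE, 0.20 for SRSF3-OE and 0.10 for SRSF7-OE, but −0.00 in 3xSR and −0.05 in MYC-OE, with medians of all genes between −0.03 and −0.00. The CPM of the line and its control did not overlap for 10 members in 3xSR (40.2% of all genes), 17 in MYC-OE (48.3%), 22 for SRSF2-OE (35.9%), 24 for SRSF3-OE (39.8%) and 21 for SRSF7-OE (32.6%).

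**Figure D1:**
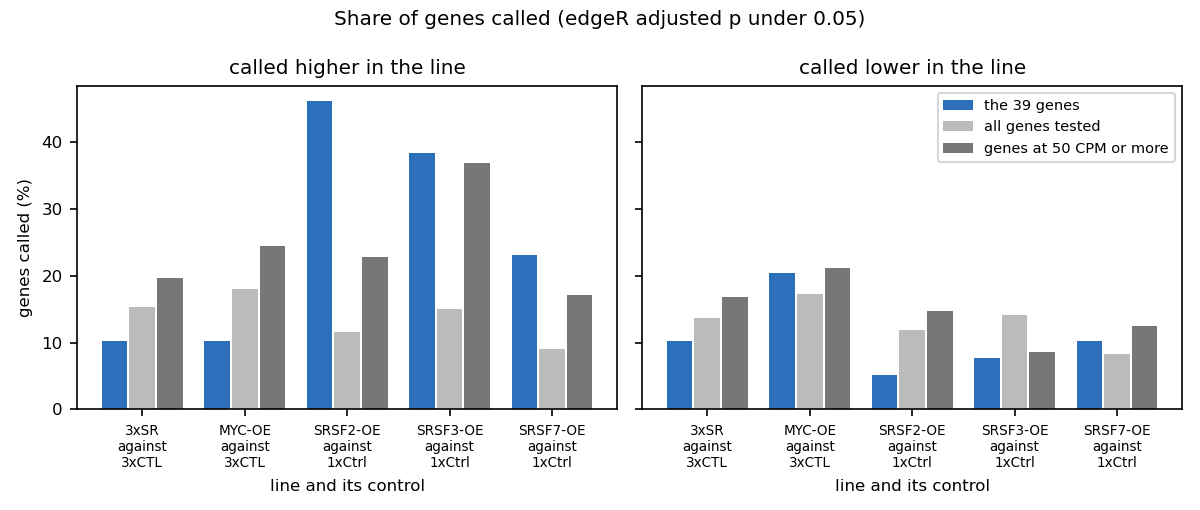
Percent of genes called higher (left) or lower (right) than the own control by edgeR at an adjusted p under 0.05, for the 39 genes, all genes tested and genes with a mean of at least 50 CPM. The members' bar for higher calls is the tallest in SRSF2-OE (46.2%) and the shortest of the 3 bars in 3xSR and MYC-OE (10.3% each).

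The counts moved with single libraries and with the scaling. Without 3xCTL replicate 2, 9 members were higher and 8 lower in 3xSR, and 5 and 11 in MYC-OE. Without 1xCtrl replicate 2, the counts were 19 and 3 in SRSF2-OE, 16 and 2 in SRSF3-OE, and 13 and 7 in SRSF7-OE. With total counts as the only scaling, the median of all genes in SRSF3-OE moved by −0.11 on the log2 scale, and 7 members were higher and 4 lower there. Upper-quartile scaling gave 8 and 3 in SRSF3-OE and 6 and 5 in SRSF7-OE, while total counts gave 3 and 5 in 3xSR and removal of the GC trend 3 and 7. Higher calls in SRSF3-OE lost under both of these scalings were those of HNRNPA1, HNRNPA2B1, HNRNPA3, HNRNPD, HNRNPK, HNRNPU and HNRNPUL2. Their edgeR adjusted p ran from 0.0687 to 0.227. That of KHDRBS1 was lost with total counts alone (0.0686).

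**Figure D2:**
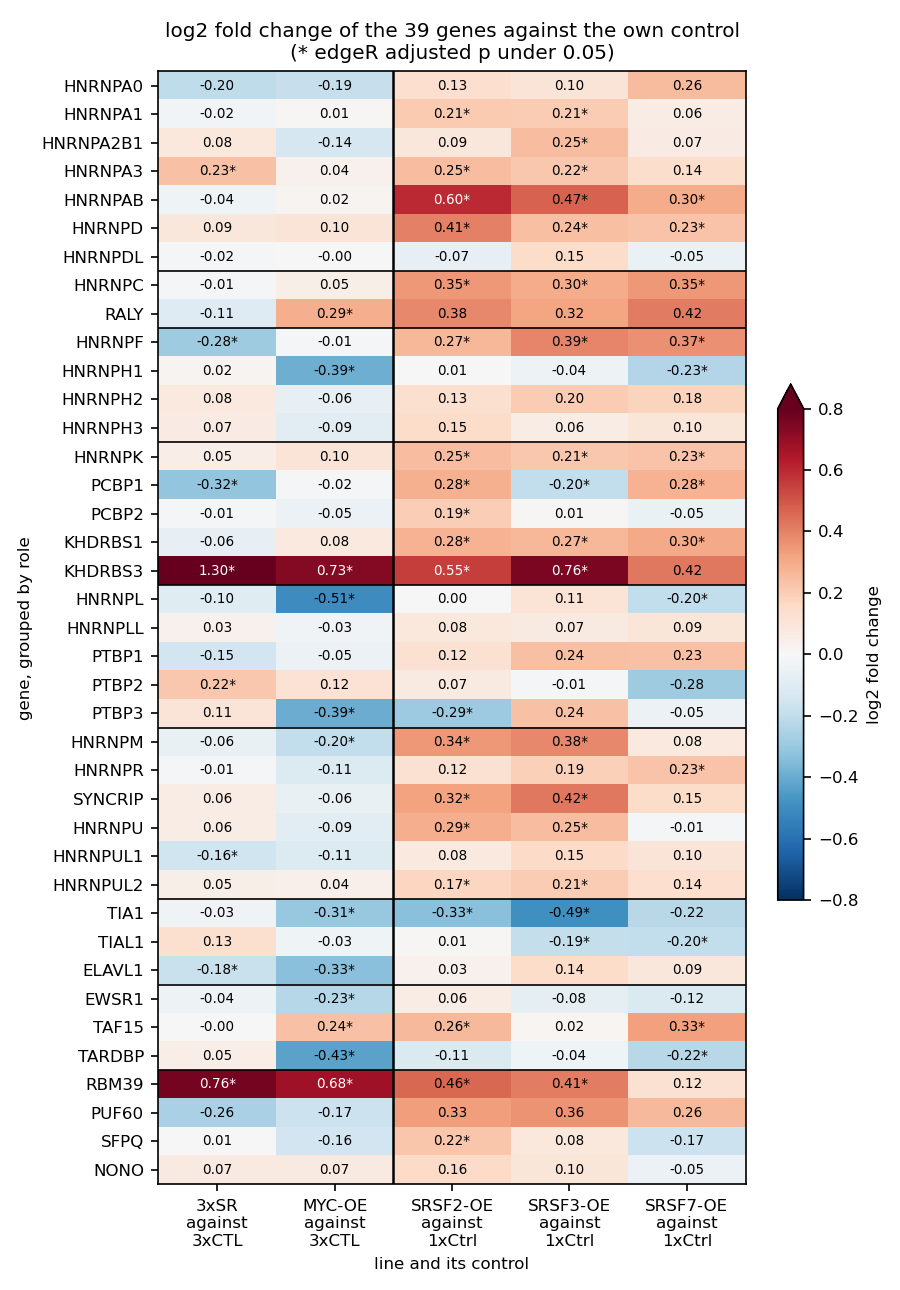
log2 fold change of each of the 39 genes (rows, grouped by role) in the 5 lines against their own control (columns), with an asterisk where edgeR's adjusted p was under 0.05. RBM39 and KHDRBS3 are called higher in 4 of the 5 columns, and HNRNPAB, HNRNPC, HNRNPD, HNRNPF, HNRNPK and KHDRBS1 are called higher in each of the 3 columns on the right.

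The hnRNP A/B and D genes encode RRM proteins that bind exonic and intronic silencers, and HNRNPD (AUF1) also binds AU-rich elements of unstable mRNAs. HNRNPAB (ENSG00000197451.12, chr5:178204507-178211163, GENCODE release 29 on GRCh38), which encodes a protein of RNA and single-stranded DNA binding, had the widest change of this group. Its level was 138, 140 and 141 CPM in 1xCtrl, 218, 215 and 201 in SRSF2-OE, 192, 192 and 199 in SRSF3-OE, and 166, 180 and 169 in SRSF7-OE. No library of the 3 lines overlapped the control. The log2 fold changes were 0.60 ± 0.05 (SE, n = 3 against 3, edgeR adjusted p = 1.05e-05), 0.47 ± 0.05 (3.33e-05) and 0.30 ± 0.05 (0.00271). SRSF7-OE stood below SRSF2-OE by 0.30 (edgeR adjusted p = 0.00133) and below SRSF3-OE by 0.18 (0.0203) on the log2 scale. The latter call held in 9 of 17 alternatives. It was lost without SRSF3-OE replicate 1 or 3 or SRSF7-OE replicate 1 or 3 (adjusted p from 0.0637 to 0.128) and with total counts alone (−0.07, 0.311). In the first table HNRNPAB was 176, 177 and 166 CPM in 3xCTL, 174, 165 and 167 in 3xSR, and 179, 172 and 175 in MYC-OE. The 3 groups overlapped there, with log2 fold changes of −0.04 and 0.02.

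HNRNPD and HNRNPDL are paralogs on chromosome 4. HNRNPD was 279, 251 and 296 CPM in 1xCtrl, 364, 378 and 354 in SRSF2-OE, 332, 321 and 323 in SRSF3-OE, and 313, 325 and 331 in SRSF7-OE, with no overlap with the control. It rose by 0.41 ± 0.06 (edgeR adjusted p = 0.000564), 0.24 ± 0.06 (0.0116) and 0.23 ± 0.06 (0.0246) on the log2 scale, the last falling to 0.19 (adjusted p = 0.0708) without SRSF7-OE replicate 3. HNRNPDL, which encodes a related AU-rich element binder and is known to control its own splicing, was 414, 380 and 425 CPM in 1xCtrl, 366, 412 and 387 in SRSF2-OE, 446, 455 and 449 in SRSF3-OE, and 374, 392 and 409 in SRSF7-OE. SRSF3-OE lay above all other libraries of the table, yet its difference from the control missed the threshold (0.15 ± 0.06, edgeR adjusted p = 0.101). HNRNPDL was higher in SRSF3-OE than in SRSF2-OE by 0.21 (adjusted p = 0.024), and lower in SRSF7-OE than in SRSF3-OE by a log2 difference of −0.20 (0.0247). With the GC trend removed these were 0.13 (adjusted p = 0.0733) and −0.11 (0.116), and the second was also lost without SRSF3-OE replicate 3 or SRSF7-OE replicate 1 or 2 (0.0614 to 0.0884).

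Of the most abundant members, HNRNPA2B1 and HNRNPA1 were in this group. Per kb of coding exon in 1xCtrl, HNRNPA2B1 came first (277 ± 12.5 CPM per kb, SD, n = 3), followed by HNRNPA1 (204 ± 15.6), HNRNPK (197 ± 14.9) and HNRNPH1 (179 ± 11.4). HNRNPA1 and HNRNPK did not differ beyond their spread, and changed places in 3xCTL. HNRNPA1, a splicing repressor and antagonist of SR proteins, was 901, 797 and 921 CPM in 1xCtrl, 1006, 1048 and 978 in SRSF2-OE, and 998, 999 and 1023 in SRSF3-OE. It rose by 0.21 ± 0.06 in both (edgeR adjusted p = 0.0283 and 0.0269), and both calls were lost without 1xCtrl replicate 2, its lowest library, with adjusted p from 0.0518 to 0.0902 over the libraries whose omission ended one of them (also 1xCtrl replicate 1, SRSF2-OE replicate 2 and SRSF3-OE replicate 3). Pseudogenes named HNRNPA1P held from 3.01% to 3.50% of the summed CPM of that family, so reads shared with near-identical copies leave its value uncertain by the counting used. HNRNPA3 was called higher in 3xSR. It was 790, 873 and 753 CPM in 3xCTL and 964, 929 and 951 in 3xSR, with no overlap and a log2 fold change of 0.23 ± 0.06 (edgeR adjusted p = 0.008). With the GC trend removed the change was 0.11 (adjusted p = 0.024). Without 3xCTL replicate 2, HNRNPA2B1 (0.13, adjusted p = 0.0388) and HNRNPD (0.15, 0.0215) were also called higher in 3xSR, and HNRNPA0 lower (−0.29, 0.000711). HNRNPA3 also rose in SRSF2-OE (0.25 ± 0.06) and SRSF3-OE (0.22 ± 0.06, edgeR adjusted p = 0.0217, lost without any 1 of 1xCtrl replicates 1 and 2 and SRSF3-OE replicates 2 and 3 at adjusted p from 0.0538 to 0.0609). With the GC trend removed its change in SRSF3-OE was 0.12 (adjusted p = 0.0823). HNRNPA2B1 rose in SRSF3-OE alone among the tests against a control (0.25 ± 0.06, edgeR adjusted p = 0.00843), a call lost without 1xCtrl replicate 1 or SRSF3-OE replicate 3 (0.0509 to 0.0572), and HNRNPA0 passed in none.

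HNRNPC encodes the protein that measures nascent transcripts and masks uridine tracts, and RALY is its close relative. HNRNPC rose in the 3 single-gene lines: it was 441, 414 and 476 CPM in 1xCtrl, 586, 581 and 529 in SRSF2-OE, 580, 505 and 553 in SRSF3-OE, and 545, 580 and 568 in SRSF7-OE. The log2 fold changes were 0.35 ± 0.07 (edgeR adjusted p = 0.00344), 0.30 ± 0.07 (0.00674) and 0.35 ± 0.07 (0.00577). In 3xSR and MYC-OE they were −0.01 and 0.05. RALY was 163, 128 and 151 CPM in 3xCTL and 176, 175 and 188 in MYC-OE, where it rose by 0.29 ± 0.08 (adjusted p = 0.0127, or 0.055 without MYC-OE replicate 3).

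RALY was 1 of 3 GC-rich members, with PTBP1 and PUF60, whose calls in the single-gene lines changed with 1 control library. RALY was 102, 159 and 98.9 CPM in the 3 libraries of 1xCtrl, PTBP1 170, 250 and 165, and PUF60 98.7, 154 and 86.4. The second library stood above the other 2 in each, by 0.66, 0.58 and 0.73 on the log2 scale, and the mean GC content of their GENCODE transcripts was 57.0%, 59.8% and 62.5%. None of the 3 was called in SRSF2-OE, SRSF3-OE or SRSF7-OE with all libraries. Without 1xCtrl replicate 2, all 3 were called higher in all 3 lines, with log2 fold changes from 0.33 (PTBP1 in SRSF2-OE) to 0.69 (RALY in SRSF7-OE). In 3xCTL the second library stood below the other 2 for the same genes, by log2 ratios of −0.30, −0.31 and −0.43. Without it the 3 were called lower in 3xSR, by −0.20, −0.25 and −0.39. With the GC trend of each library removed instead, the 3xSR differences were 0.04, 0.02 and −0.00, and those in the single-gene lines ran from 0.13 to 0.58.

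**Figure D3:**
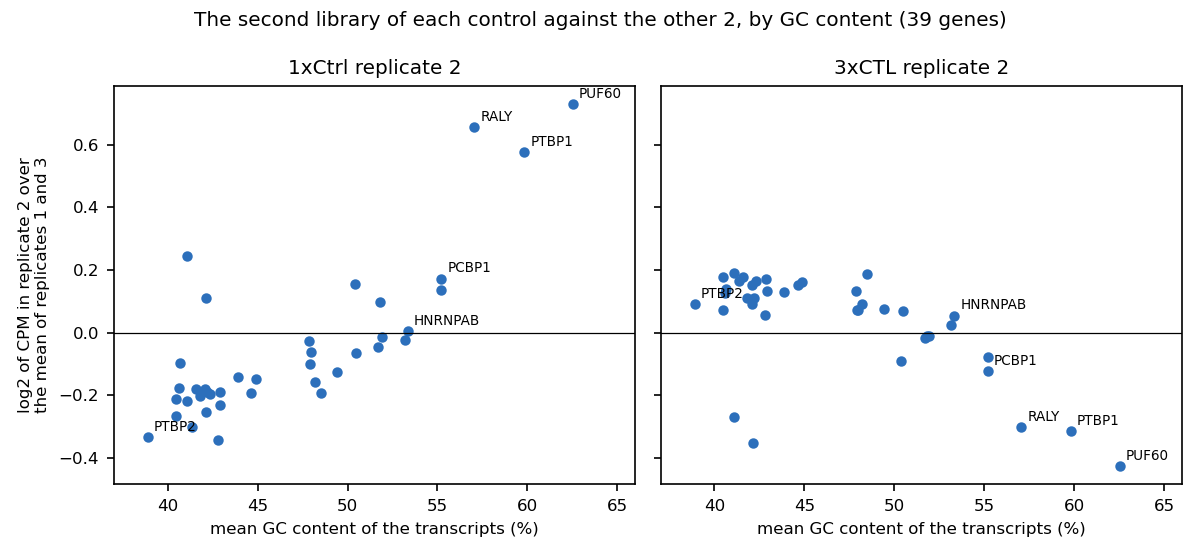
For each of the 39 genes, the mean GC content of its transcripts (x axis, percent) against the log2 ratio of its CPM in replicate 2 of a control to the mean of the other 2 replicates (y axis). PUF60, RALY and PTBP1 lie at the right, above 0 in 1xCtrl (0.73, 0.66 and 0.58) and below 0 in 3xCTL (−0.43, −0.30 and −0.31).

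The hnRNP F/H proteins bind G-runs, and HNRNPF and HNRNPH1 are among their main forms. HNRNPF (ENSG00000169813.16, chr10:43385617-43409166) went opposite ways in the 2 tables. It was 334, 302 and 309 CPM in 3xCTL, 271, 252 and 253 in 3xSR, and 316, 310 and 312 in MYC-OE, so that 3xSR lay below both other groups. In the second table it was 239, 262 and 231 in 1xCtrl, 307, 291 and 281 in SRSF2-OE, 331, 299 and 329 in SRSF3-OE, and 302, 324 and 319 in SRSF7-OE, all above the control. The log2 fold change was −0.28 ± 0.05 in 3xSR (edgeR adjusted p = 0.00159), and 0.27 ± 0.07 (0.0107), 0.39 ± 0.07 (0.000659) and 0.37 ± 0.07 (0.00255) in the single-gene lines. The SRSF2-OE call was lost without 1xCtrl replicate 1 or 3, or without any 1 library of SRSF2-OE, at adjusted p from 0.0719 to 0.178. HNRNPH1 was 608, 645 and 605 CPM in 3xCTL, 608, 651 and 632 in 3xSR, and 474, 473 and 471 in MYC-OE. It fell by 0.39 ± 0.05 on the log2 scale in MYC-OE (adjusted p = 5.58e-05), where the lowest control library was above the highest library of the line. HNRNPH1 also fell in SRSF7-OE, from 700, 620 and 685 CPM to 557, 589 and 558 (−0.23 ± 0.07, edgeR adjusted p = 0.0304, but 0.058 with the replicate block and 0.0664 with the 2 groups fitted alone). HNRNPH2 and HNRNPH3 passed in no test against a control.

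Among the KH-domain genes, HNRNPK, PCBP1 and PCBP2 encode binders of poly(C) tracts, and KHDRBS1 (Sam68) and KHDRBS3 (SLM2, also called T-STAR) encode STAR-family splicing regulators. All 5 were higher in SRSF2-OE. PCBP1 (ENSG00000169564.7, an intronless gene at chr2:70087454-70089203) had the most divided pattern of the 39. It was 241, 213 and 223 CPM in 3xCTL, 190, 175 and 179 in 3xSR, and 226, 218 and 225 in MYC-OE. Over the single-gene lines and their control it was 166, 193 and 177 in 1xCtrl, 225, 217 and 210 in SRSF2-OE, 164, 150 and 153 in SRSF3-OE, and 208, 208 and 235 in SRSF7-OE. SRSF3-OE was below the other groups of its table, and SRSF2-OE and SRSF7-OE were above the control. The log2 fold changes were −0.32 ± 0.06 in 3xSR (edgeR adjusted p = 0.00112), 0.28 ± 0.07 for SRSF2-OE (0.0105), −0.20 ± 0.07 for SRSF3-OE (0.0492) and 0.28 ± 0.07 for SRSF7-OE (0.0153). The 3 calls against 1xCtrl each depended on single libraries: that of SRSF3-OE was lost without 1xCtrl replicate 2 or any 1 library of the line (adjusted p from 0.0521 to 0.123), and also with RLE scaling (0.0638), DESeq2 (0.0782), the replicate block (0.088), the GC trend removed (0.0541) or the 2 groups fitted alone (0.097), and those of SRSF2-OE and SRSF7-OE without 1xCtrl replicate 1 or 3 or any 1 library of the line (0.0645 to 0.209), or with the 2 groups fitted alone (0.111 and 0.0893). The differences between lines do not use the control. PCBP1 was lower in SRSF3-OE than in SRSF2-OE by a log2 difference of −0.48 ± 0.07 (edgeR adjusted p = 0.000286), and higher in SRSF7-OE than in SRSF3-OE by 0.48 ± 0.07 (0.000164), with every alternative giving the same calls. PCBP1 shares 914 of its 1750 exon bases with the antisense gene PCBP1-AS1, and the strand setting of the counting is not given, so how reads on the shared bases were assigned is not known. PCBP1-AS1 was listed at 12.1 to 20.5 CPM over the 21 libraries.

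KHDRBS3 was the scarcest member and had the widest fold change. It was 0.489, 0.405 and 0.544 CPM in 3xCTL, 1.33, 1.06 and 1.15 in 3xSR, and 0.995, 0.676 and 0.717 in MYC-OE. Both lines lay above the control, with log2 fold changes of 1.30 ± 0.20 (edgeR adjusted p = 0.000481) and 0.73 ± 0.20 (0.013, or 0.0672 without MYC-OE replicate 1). In the other table it was 0.672, 0.78 and 0.774 in 1xCtrl, 1.2, 1.15 and 0.91 in SRSF2-OE, 1.12, 1.47 and 1.17 in SRSF3-OE, and 1.02, 1.06 and 0.903 in SRSF7-OE, again without overlap. It rose by 0.76 ± 0.16 in SRSF3-OE (adjusted p = 0.00356) and by 0.55 ± 0.16 in SRSF2-OE (0.0266). The latter was lost without 1xCtrl replicate 1 or 3 or SRSF2-OE replicate 1 or 2, at adjusted p from 0.0606 to 0.127, and SRSF7-OE missed the threshold (0.42 ± 0.16, adjusted p = 0.0977). At these levels it stood well above the 3-count floor, but far below its paralog KHDRBS1, which was between 112 and 152 CPM in every library. KHDRBS1 rose in SRSF2-OE (0.28 ± 0.06), SRSF3-OE (0.27 ± 0.06) and SRSF7-OE (0.30 ± 0.06), with edgeR adjusted p from 0.00601 to 0.00636. The first 2 of these were lost without 1xCtrl replicate 1 or the first library of the line, at adjusted p from 0.0527 to 0.0731. HNRNPK rose in the same 3 lines, with log2 fold changes of 0.25, 0.21 and 0.23 ± 0.07 (adjusted p = 0.0179, 0.0298 and 0.0366). These calls were lost without SRSF2-OE replicate 1 in the first line (0.0632), without 1xCtrl replicate 1 or 2 or SRSF3-OE replicate 1 or 3 in SRSF3-OE (0.0768 to 0.131), and without 1xCtrl replicate 1 or SRSF7-OE replicate 2 or 3 in SRSF7-OE (0.0609 to 0.085). With the GC trend removed the HNRNPK change in SRSF3-OE was 0.11 (adjusted p = 0.069). PCBP2 rose in SRSF2-OE alone (0.19 ± 0.05, edgeR adjusted p = 0.0205, lost without 1xCtrl replicate 1 or SRSF2-OE replicate 2 at 0.0581 to 0.0797) among the tests against a control.

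**Figure D4:**
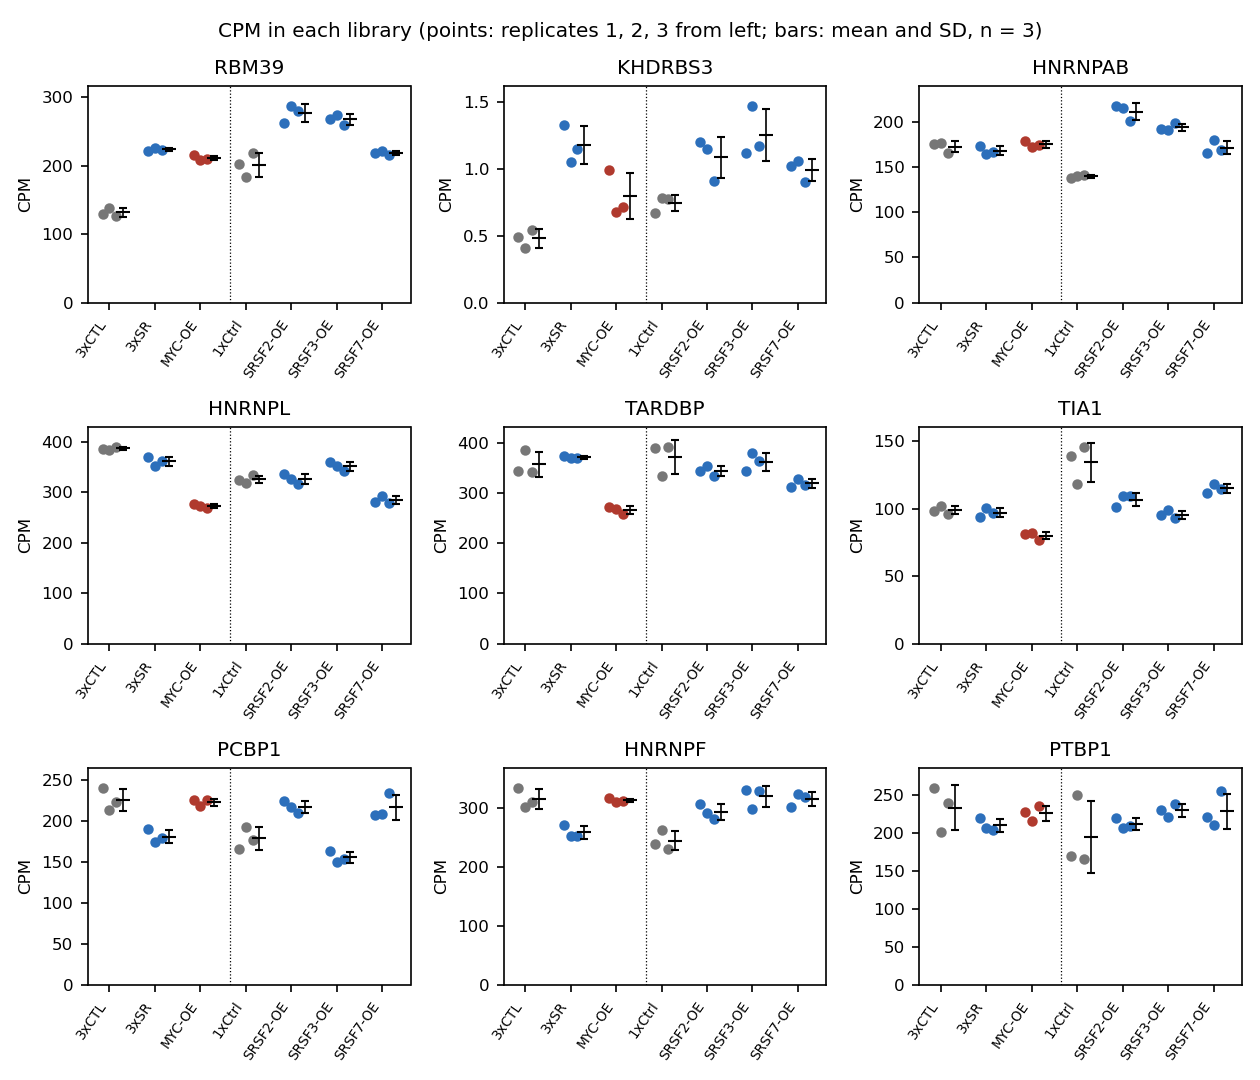
CPM in each library for 9 genes, with points for replicates 1 to 3 and bars for the mean and SD (n = 3); the dotted line parts the 2 tables, which were scaled separately. RBM39 is higher than its control in 4 lines, HNRNPL and TARDBP are lowest in MYC-OE, PCBP1 is lowest in SRSF3-OE, and PTBP1 shows the high second library of 1xCtrl (250 CPM beside 170 and 165).

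HNRNPL and the polypyrimidine-tract-binding proteins repress exons next to CA-rich or pyrimidine-rich tracts, and pairs of them regulate one another's splicing. HNRNPL (ENSG00000104824.17, chr19:38836388-38852347) was 387, 384 and 390 CPM in 3xCTL, 369, 351 and 363 in 3xSR, and 277, 272 and 269 in MYC-OE. MYC-OE lay apart from both other groups, by −0.51 ± 0.04 against 3xCTL (edgeR adjusted p = 3.14e-06) and −0.41 ± 0.04 against 3xSR (3.63e-05). In the table of single-gene lines HNRNPL was 324, 319 and 333 in 1xCtrl and 280, 293 and 279 in SRSF7-OE, a log2 fold change of −0.20 ± 0.05 (adjusted p = 0.0198, or 0.0675 with the 2 groups fitted alone). SRSF7-OE was also lower than SRSF2-OE (−0.20, adjusted p = 0.0133) and SRSF3-OE (−0.31, 0.000449). Its paralog HNRNPLL, a regulator of alternative exons known from lymphocytes, lay between 36.1 and 47.1 CPM over the 21 libraries. HNRNPLL passed no test against a control, with log2 fold changes between −0.03 and 0.09 and 95% intervals that all lay within −0.16 to 0.28.

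PTBP3 was 135, 133 and 122 CPM in 3xCTL, 153, 130 and 136 in 3xSR, and 101, 102 and 93 in MYC-OE. It fell in MYC-OE by 0.39 ± 0.07 on the log2 scale (edgeR adjusted p = 0.000848), with every MYC-OE library under every other library of the table. Among the single-gene lines PTBP3 was 115, 102 and 103 in SRSF2-OE, 164, 144 and 153 in SRSF3-OE, and 117, 132 and 128 in SRSF7-OE, around 138, 110 and 142 in 1xCtrl. SRSF2-OE was lower than the control (−0.29 ± 0.09, adjusted p = 0.0374), although the 2 groups overlapped and the call was lost without 1xCtrl replicate 3 (0.06). SRSF3-OE was higher than SRSF2-OE by 0.53 ± 0.09 (edgeR adjusted p = 0.00105) without overlap. PTBP1, the main form outside neurons, and PTBP2, the neuronal form whose mRNA PTBP1 is known to direct to decay, differed in level. PTBP1 lay between 165 and 260 CPM and passed no test against a control with all libraries. PTBP2 was 14, 15.4 and 15 CPM in 3xCTL and 17.1, 17.7 and 16.9 in 3xSR, without overlap (0.22 ± 0.07, edgeR adjusted p = 0.0454). That call held in 6 of 17 alternatives. It was lost without any 1 of 5 libraries (3xCTL replicates 1 and 3 and all 3 of 3xSR), at adjusted p from 0.0924 to 0.174. With the GC trend removed the change was 0.08 (adjusted p = 0.408). The call was also lost with upper-quartile scaling, total counts alone, no filter or the 2 groups fitted alone (0.0515 to 0.0775). Over the single-gene lines and their control PTBP2 was 20.5, 17.1 and 22.6 CPM in 1xCtrl and 16.7, 16.3 and 16.4 in SRSF7-OE, which was lower than SRSF2-OE (−0.36, edgeR adjusted p = 0.0193, or 0.061 without SRSF2-OE replicate 3). Its difference from SRSF3-OE (−0.28, adjusted p = 0.0456) was lost without any 1 library of either line, at adjusted p from 0.0515 to 0.127.

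The hnRNP M, R, Q and U genes encode proteins of the nuclear matrix and of mRNA transport, and SYNCRIP is hnRNP Q. HNRNPM, HNRNPU, HNRNPUL2 and SYNCRIP rose in both SRSF2-OE and SRSF3-OE. SYNCRIP was 285, 246 and 284 CPM in 1xCtrl, 351, 341 and 328 in SRSF2-OE, 380, 350 and 360 in SRSF3-OE, and 293, 310 and 298 in SRSF7-OE. The first 2 lines stood clear of the control, with 0.32 ± 0.07 (edgeR adjusted p = 0.00324) and 0.42 ± 0.07 (0.000373), while SRSF7-OE missed the threshold (0.15). HNRNPM rose by 0.34 ± 0.06 and 0.38 ± 0.06 in the same lines, and was lower in SRSF7-OE than in either. In MYC-OE it fell by 0.20 ± 0.06 on the log2 scale (adjusted p = 0.0246), a call lost without 3xCTL replicate 1 or any 1 MYC-OE library (0.0553 to 0.0966). HNRNPU, a chromatin- and RNA-binding scaffold, rose by 0.29 and 0.25 in SRSF2-OE and SRSF3-OE and had −0.01 in SRSF7-OE. Its SRSF3-OE call was lost with upper-quartile scaling (edgeR adjusted p = 0.106), total counts alone (0.103) or the 2 groups fitted alone (0.075). HNRNPUL2 rose by 0.17 ± 0.06 in SRSF2-OE (edgeR adjusted p = 0.0475) and 0.21 ± 0.06 in SRSF3-OE (0.0161). The first call was lost without any 1 library of 1xCtrl or SRSF2-OE replicate 1 or 2 (0.0763 to 0.304), and the second without 1xCtrl replicate 1 or 3 or SRSF3-OE replicate 1 or 3 (0.0722 to 0.125). HNRNPUL2 shares 2391 of its 5416 exon bases with the readthrough gene HNRNPUL2-BSCL2. HNRNPR was called in SRSF7-OE only among the tests against a control (0.23 ± 0.07, adjusted p = 0.0392, lost without 1xCtrl replicate 1 or SRSF7-OE replicate 2 or 3 at 0.0824 to 0.136). HNRNPUL1 was lower in 3xSR (−0.16 ± 0.05, edgeR adjusted p = 0.0381, lost without 3xCTL replicate 1 or 3xSR replicate 2 or 3 at 0.0703 to 0.159). With the GC trend removed its change was −0.09 (adjusted p = 0.14).

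TIA1 and TIAL1 (TIAR) bind U-rich tracts, help U1 snRNP at weak 5′ splice sites and form stress granules. TIA1 (ENSG00000116001.16, chr2:70209444-70248660) was the only member called lower in 3 of the 5 lines. It was 98.2, 102 and 96.1 CPM in 3xCTL, 93.9, 100 and 96.6 in 3xSR, and 81.1, 81.8 and 76.9 in MYC-OE. In the other table it was 139, 118 and 146 in 1xCtrl, 101, 110 and 110 in SRSF2-OE, 95.3, 98.9 and 93 in SRSF3-OE, and 112, 119 and 115 in SRSF7-OE. MYC-OE and the SRSF2-OE and SRSF3-OE groups lay below their controls without overlap, while SRSF7-OE overlapped 1xCtrl. TIA1 fell on the log2 scale by 0.31 ± 0.05 in MYC-OE (edgeR adjusted p = 0.000513), 0.33 ± 0.07 in SRSF2-OE (0.00508) and 0.49 ± 0.07 in SRSF3-OE (0.000256). In SRSF7-OE the change was −0.22 ± 0.07 (adjusted p = 0.0513), and SRSF7-OE was higher than SRSF3-OE by 0.27 (0.012). TIAL1 was 318, 287 and 331 CPM in 1xCtrl, 298, 322 and 320 in SRSF2-OE, 270, 286 and 265 in SRSF3-OE, and 275, 274 and 268 in SRSF7-OE. It fell by 0.19 ± 0.06 on the log2 scale in SRSF3-OE (edgeR adjusted p = 0.0348) and by 0.20 ± 0.06 in SRSF7-OE (0.0472), with 0.01 in SRSF2-OE. Both calls were lost with the replicate block (0.0667 and 0.0899), and the second with the 2 groups fitted alone (0.107). Without 1xCtrl replicate 2, both paralogs were called lower in SRSF7-OE, with a log2 fold change of −0.30 for TIA1 (edgeR adjusted p = 0.000743) and −0.24 for TIAL1 (0.00307). ELAVL1 (HuR), which stabilises mRNAs with AU-rich elements, was 107, 103 and 101 CPM in 3xCTL, 94.5, 88.8 and 92.4 in 3xSR, and 82.6, 82.9 and 81.4 in MYC-OE. The 3 groups did not overlap. ELAVL1 fell by 0.18 ± 0.05 in 3xSR (adjusted p = 0.0147, or 0.0525 without 3xSR replicate 3) and by 0.33 ± 0.05 in MYC-OE (0.000166).

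EWSR1 and TAF15 encode FET-family proteins, and TARDBP encodes TDP-43, which binds UG-rich introns and limits its own mRNA. TARDBP (ENSG00000120948.17, chr1:11012344-11026420) was 343, 386 and 342 CPM in 3xCTL, 374, 369 and 369 in 3xSR, and 271, 268 and 257 in MYC-OE. MYC-OE stood below both other groups, by −0.43 ± 0.05 against 3xCTL (edgeR adjusted p = 8.42e-05) and −0.48 ± 0.05 against 3xSR (5.67e-05). TARDBP was also lower in SRSF7-OE (312, 328 and 316 CPM) than in 1xCtrl (389, 333 and 392), by −0.22 ± 0.07 (adjusted p = 0.0414, but 0.0819 with the replicate block and 0.106 with the 2 groups fitted alone). TAF15 rose in MYC-OE (0.24 ± 0.05), SRSF2-OE (0.26 ± 0.05) and SRSF7-OE (0.33 ± 0.05), with edgeR adjusted p from 0.00156 to 0.00501. It was 206, 201 and 203 CPM in 1xCtrl, 243 in each library of SRSF2-OE, 207, 213 and 199 in SRSF3-OE, and 242, 268 and 257 in SRSF7-OE. SRSF3-OE overlapped the control, and SRSF7-OE was higher than SRSF3-OE by 0.31. EWSR1 fell in MYC-OE by 0.23 ± 0.05 on the log2 scale (edgeR adjusted p = 0.00219).

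RBM39 (ENSG00000131051.24, chr20:35701347-35742312) encodes a U2AF-related splicing factor and coactivator. It was 130, 139 and 127 CPM in 3xCTL, 222, 226 and 223 in 3xSR, and 215, 209 and 210 in MYC-OE. Both lines lay far above the control and rose by 0.76 ± 0.05 (edgeR adjusted p = 3.65e-07) and 0.68 ± 0.05 (5.8e-07), with no difference called between them (−0.08, 95% interval −0.19 to 0.02). In the table of single-gene lines RBM39 was 203, 183 and 219 in 1xCtrl, 263, 288 and 280 in SRSF2-OE, 269, 275 and 260 in SRSF3-OE, and 218, 222 and 215 in SRSF7-OE. SRSF2-OE and SRSF3-OE rose by 0.46 ± 0.07 (adjusted p = 0.000335) and 0.41 ± 0.07 (0.000462) without overlap, while SRSF7-OE overlapped the control (0.12 ± 0.07, adjusted p = 0.252). The 2 controls differed. On a scale fitted over both tables, RBM39 was 132 ± 6.10 CPM in 3xCTL (SD, n = 3) and 202 ± 15.5 in 1xCtrl, close to the 224 ± 1.79 of 3xSR and 212 ± 3.60 of MYC-OE. The control and the table cannot be told apart in this comparison. SFPQ, a paraspeckle and splicing protein, rose in SRSF2-OE (0.22 ± 0.06, edgeR adjusted p = 0.0182), and its partner NONO passed no test against a control.

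The lines of a table were then set against one another. SRSF7-OE differed from SRSF2-OE in 12 members, all lower in SRSF7-OE, where 24.2% of all genes differed (12.8% higher and 11.5% lower, or 15.9% and 18.5% of well-expressed genes). From SRSF3-OE it differed in 15, of which 12 were lower and PCBP1, TAF15 and TIA1 higher, where 35.2% of all genes differed (17.3% higher and 17.8% lower, or 13% and 37.3% of well-expressed genes). HNRNPAB, HNRNPH1, HNRNPL, HNRNPM, HNRNPU, PTBP2, RBM39 and SFPQ were lower in SRSF7-OE in both comparisons. Against SRSF3-OE, the HNRNPH1 call was lost without SRSF3-OE replicate 2 or 3 or SRSF7-OE replicate 1 or 3 (edgeR adjusted p from 0.0671 to 0.0866). It was also lost with upper-quartile scaling (0.117), total counts alone (0.301), no filter (0.0679) or the replicate block (0.068). The HNRNPU call was lost there with total counts alone (0.0662). SRSF3-OE and SRSF2-OE differed in 6 members, where 26.8% of all genes did (14.1% higher and 12.6% lower, or 30.8% and 9.63% of well-expressed genes). HNRNPDL and PTBP3 were higher in SRSF3-OE, and PCBP1, PCBP2, TAF15 and TIAL1 were lower. This count was 20 with the GC trend removed and 10 with total counts alone, and the 15 between SRSF7-OE and SRSF3-OE fell to 9 under upper-quartile scaling and to 8 when libraries were scaled by total counts. MYC-OE and 3xSR differed in 17 members, 4 higher and 13 lower in MYC-OE, where 34.9% of all genes did (17.3% higher and 17.6% lower, or 24.4% and 25.6% of well-expressed genes). HNRNPF, PCBP1, RALY and TAF15 were the 4 higher ones. KHDRBS3 had the lowest value (−0.57 ± 0.20, edgeR adjusted p = 0.0411, lost without any 1 library of 3xSR or MYC-OE replicate 2 or 3 at 0.0554 to 0.144), followed by PTBP3 (−0.50 ± 0.07) and TARDBP (−0.48 ± 0.05). Groups did not overlap for 22 members between MYC-OE and 3xSR (53.2% of all genes), 16 between SRSF3-OE and SRSF2-OE (47.7%), 20 between SRSF7-OE and SRSF2-OE (46%) and 20 between SRSF7-OE and SRSF3-OE (52.6%). The 6 members higher in all 3 single-gene lines were HNRNPAB, HNRNPC, HNRNPD, HNRNPF, HNRNPK and KHDRBS1. The 3 comparisons with 1xCtrl behind that count share its libraries. The share of all genes called higher in all 3 lines was not counted, so the 6 have no background to be read against.

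None of those 6 was called higher in 3xSR with all libraries, while HNRNPD was (0.15, edgeR adjusted p = 0.0215) without 3xCTL replicate 2. The difference between the 3xSR effect and each single effect was tested in 1 edgeR fit over both tables, each effect against the control of its own table. It was called for 15 members against SRSF2-OE (21.9% of all genes), 11 against SRSF3-OE (17.8%) and 15 against SRSF7-OE (24.6%). HNRNPAB, HNRNPF, KHDRBS1 and RBM39 were called against all 3 lines, and the share of all genes called against all 3 was not counted. For HNRNPAB the 3xSR effect was smaller by −0.62 ± 0.07, −0.50 ± 0.07 and −0.33 ± 0.07 on the log2 scale, for HNRNPF by −0.54, −0.66 and −0.65 ± 0.09, and for KHDRBS1 by −0.33, −0.32 and −0.36 ± 0.09. For RBM39 it was larger by 0.31, 0.36 and 0.65 ± 0.07, the last with an edgeR adjusted p of 2.98e-06. The levels of the controls enter these differences. On the scale of that fit, HNRNPAB was 173 ± 6.46 CPM (SD, n = 3) in 3xCTL and 140 ± 2.03 in 1xCtrl, beside 169 ± 4.77 in 3xSR and 172 ± 6.73 in SRSF7-OE. KHDRBS1 was 139 ± 8.33 in 3xCTL and 116 ± 1.88 in 1xCtrl, beside 133 ± 8.64 in 3xSR and 142 ± 8.53 in SRSF7-OE. The levels of both in 3xSR and SRSF7-OE overlapped, and the control and the table cannot be told apart.

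Of the 7 members with an E-box in the window before the RefSeq start, HNRNPM was the only one called in MYC-OE with all libraries, and it was lower. The others had log2 fold changes of 0.10 (HNRNPD), 0.08 (KHDRBS1), 0.04 (HNRNPA3), −0.00 (HNRNPDL), −0.06 (HNRNPH2) and −0.09 (HNRNPH3). Without 3xCTL replicate 2, HNRNPD was called higher in MYC-OE (0.17, edgeR adjusted p = 0.0128). For the members that rose in MYC-OE, RALY had no E-box in its window, and the windows of RBM39, KHDRBS3 and TAF15 were among those not matched.

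Other genes of the pathway were read from lists drawn up by function. Beside their counts stand the shares of all genes tested. These were 15.3% higher and 13.7% lower in 3xSR, 18% and 17.3% in MYC-OE, and 11.6% and 11.9% in SRSF2-OE. They were 15% and 14.1% in SRSF3-OE, and 9.03% and 8.26% in SRSF7-OE. Among genes with a mean of at least 50 CPM, the shares were 36.9% and 8.64% in SRSF3-OE and 24.5% and 21.2% in MYC-OE. Of 37 further RNA-binding regulators tested, 6 were higher and 7 lower in 3xSR, 3 and 15 in MYC-OE, 9 and 3 in SRSF2-OE, 11 and 2 in SRSF3-OE, and 3 and 6 in SRSF7-OE. IGF2BP1, which encodes an mRNA-stabilising protein, was called higher in all 5 lines, from 1.51 ± 0.32 CPM in 3xCTL (SD, n = 3) to 11.0 ± 0.33 in 3xSR and 6.31 ± 0.34 in MYC-OE. Of 13 genes for nuclear import and arginine methylation of hnRNPs, 8 were higher and 0 lower in SRSF3-OE, among them PRMT3 (0.35 ± 0.07), while in MYC-OE 1 was higher and 5 lower, with TNPO2, an hnRNP import receptor, falling by 0.70 ± 0.06. In 3xSR the counts were 2 higher and 3 lower, in SRSF2-OE 3 and 0, and in SRSF7-OE 1 and 1. Of 16 mRNAs whose splicing or stability members are known to control, 7 were higher and 3 lower in both 3xSR and MYC-OE, 5 and 3 in SRSF2-OE, 6 and 4 in SRSF3-OE, and 4 and 2 in SRSF7-OE. FGFR2, a receptor with exons under PTBP1 control, was called lower in all 5 lines, and fell by 0.63 ± 0.05 in 3xSR and 0.64 ± 0.05 in MYC-OE. PKM, whose exon choice HNRNPA1 and PTBP1 govern, was called higher at the level of the gene in MYC-OE, SRSF2-OE and SRSF7-OE (0.37 ± 0.07 in the last) and lower in 3xSR.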

How the data were processed

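PolyA-selected stranded libraries were sequenced in pairs on an Illumina NovaSeq, per the labels' protocols. The authors deposited 2 tables of whole-number counts per gene, and the submitters' processing notes name Trimmomatic 0.39, STAR, StringTie 2.1.3b and GRCh38.p13 without their roles. The authors' deposited values were treated as estimated counts, because StringTie, which estimates coverage of transcripts, is among the tools that the submitters' processing notes name. The strand setting and annotation are not given in the sources used here. Symbols matched 42005 of 60668 identifiers; GENCODE release 29 gave positions, lengths and GC content.

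Libraries were grouped by title, and all 21 were used. In R 4.3.3, edgeR 4.0.16 kept genes by filterByExpr (minimum count 10, total 15), leaving 23160 genes in the first table and 24362 in the second, scaled by TMM and tested each contrast by glmQLFit and glmQLFTest with Benjamini-Hochberg adjustment at 0.05, per table over all its groups. SE is the absolute log2 fold change over the square root of F. The procedure was tested on simulated data. Alternatives were DESeq2 1.42.0, limma 3.58.1 (voom), other scalings, filters and fits, and each replicate left out. Removal of the GC trend in 50 bins, the fit over both tables and sums with genes sharing exons were chosen after seeing the data. Values in every library are given for the 3 highest and 3 lowest called members per line whose groups did not overlap and for 4 pairs of paralogs; all 39 members could be named, and of the other gene lists the highest and lowest called gene per line. Some of the latter are not reported here. The members and gene lists were chosen with earlier results of these data known. Intervals are 95%, and floors cover counting error only.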

Additional observations from a re-analysis of the deposited data

Results flagged for a closer look

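PCBP1 and HNRNPF were singled out because their effects differed between lines by a test of the difference itself. PCBP1 was called higher in SRSF2-OE and SRSF7-OE and lower in SRSF3-OE, the last call being lost in 10 of 17 alternatives. SRSF3-OE minus SRSF2-OE was −0.48 and SRSF7-OE minus SRSF3-OE was 0.48 on the log2 scale. In the fit over both tables, the 3xSR effect minus the single effect was −0.59 against SRSF2-OE and −0.59 against SRSF7-OE for PCBP1. For HNRNPF, it was −0.54 against SRSF2-OE, −0.66 against SRSF3-OE and −0.65 against SRSF7-OE, with the 3xSR effect below 0 and each single effect above 0. On the scale of that fit HNRNPF was 316 ± 17.1 CPM (SD, n = 3) in 3xCTL and 245 ± 19.3 in 1xCtrl, and PCBP1 was 226 ± 14.2 and 179 ± 15.4, so the 2 controls stood further apart than the replicates of either. The table and the control cannot be told apart.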

How the results depend on the processing

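Over 17 alternatives, 13 of the 71 member calls held in all, and no call reversed. They were HNRNPAB in SRSF2-OE and SRSF3-OE, HNRNPH1, HNRNPL and TARDBP in MYC-OE, KHDRBS3 in 3xSR and SRSF3-OE, RBM39 in 3xSR, MYC-OE, SRSF2-OE and SRSF3-OE, and SYNCRIP and TIA1 in SRSF3-OE. Every alternative kept the control of the line's own table. Testing for changes beyond 1.2-fold ended 58 calls, leaving (higher and lower) 2 and 0 in 3xSR, 1 and 3 in MYC-OE, 2 and 0 in SRSF2-OE, 4 and 1 in SRSF3-OE, and 0 and 0 in SRSF7-OE. Fitting only the groups compared ended 27, leaving 10 higher in SRSF2-OE, 8 higher in SRSF3-OE, and 5 and 0 in SRSF7-OE, with fewer libraries behind the spread. Total counts as the only scaling gave 7 higher in SRSF3-OE, 10 members differing between SRSF3-OE and SRSF2-OE and 8 between SRSF7-OE and SRSF3-OE, and upper-quartile scaling gave 8 higher in SRSF3-OE, 6 higher in SRSF7-OE and 9 between SRSF7-OE and SRSF3-OE. With the GC trend removed, 7 were lower in 3xSR, 16 higher and 8 lower in SRSF7-OE, and 20 differed between SRSF3-OE and SRSF2-OE. Both DESeq2 and no filter gave 7 lower in SRSF7-OE. Why the counts moved under any of these alternatives was not tested.

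With each replicate left out, the range was 3 to 9 higher and 2 to 8 lower in 3xSR, 3 to 5 and 7 to 11 in MYC-OE, 12 to 19 and 1 to 3 in SRSF2-OE, 9 to 16 and 2 to 3 in SRSF3-OE, and 5 to 13 and 4 to 7 in SRSF7-OE. Members differing ranged from 11 to 14 between MYC-OE and 3xSR, 6 to 8 between SRSF3-OE and SRSF2-OE, 9 to 12 between SRSF7-OE and SRSF2-OE, and 9 to 13 between SRSF7-OE and SRSF3-OE. The libraries that moved a count by over 1.5 times were 3xCTL 2, 3xSR 3, 1xCtrl 1, 2 and 3 and SRSF7-OE 3 against controls, and 3xSR 3, MYC-OE 2 and 3, SRSF3-OE 3 and SRSF7-OE 1 between lines.

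The groups share replicate numbers, but same-numbered libraries did not deviate together (Pearson's r across genes of their deviations from −0.19 to 0.05 over 9 contrasts and 3 numbers). Whether they share a culture or a batch is not given, and deviations from means of 3 libraries cannot decide it. With the replicate block, 1 member was lower in SRSF3-OE and 1 in SRSF7-OE, and 10 calls were lost in all. KHDRBS3 was the member with the lowest counts, and for it counting error weighs most.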
